A study of Caenorhabditis elegans with 34 samples.

Results

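The transcripts of 10 genes, the 7 cyclins cyd-1, cye-1, cya-1, cyb-1, cyb-2.1, cyb-2.2 and cyb-3 and the 3 cyclin-dependent kinases cdk-4, cdk-2 and cdk-1, were followed in whole Caenorhabditis elegans over days 1 to 12 of life. They were taken by gene symbol from a table of 20222 genes, and all 10 had a row. RNA was sequenced from 34 samples of unsorted animals, 31 of them from days 2 to 12, with 3 samples on each day except days 8 and 12, which had 2. Days were counted from the first food after the larvae had been synchronized by hypochlorite, and plates were harvested at intervals of 24 hours. Every sample, day 1 included, came from animals kept at 25°C that carried the temperature-sensitive allele hc88 of spe-9, which blocks fertilization at this temperature, so the adults made oocytes but no embryos. The study's text gives no developmental stage for day 1 and starts its own age model at day 2.

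A cyclin is a regulatory subunit that switches on a cyclin-dependent kinase and directs it to its substrates, and different pairs act at different steps of the cell cycle. Cyclin D with CDK-4 acts in G1, cyclin E with CDK-2 at entry into S phase, and A-type and B-type cyclins with CDK-1 at mitosis and meiosis. In the adult worm the somatic cells no longer divide and the germline holds the dividing cells, while oocytes and embryos carry maternal stores of mitotic cyclin transcripts.

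Between 19202058 and 27587987 reads per sample were assigned to genes, with a median of 21606958. The values given are CPM, read counts scaled to equal library totals and then by TMM, a method that sets the libraries to one level over most genes. The libraries of day 4, replicate 2, and day 5, replicate 3, stood apart from the others of their day, with a root mean square deviation from the day mean of 0.491 and 0.473 on the log2 scale. They also gave lower values for longer transcripts, with a trend of -0.574 and -0.519 log2 units per doubling of length relative to the average of the samples, whereas the trend in the other 29 libraries of days 2 to 12 lay between -0.282 and 0.234. Their values are therefore named where they touch a result. Nothing in the labels says that replicates were separate cultures started from different animals, so p-values measure the spread between these samples only.

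In the genome build WBcel235 with the Ensembl annotation, all 10 are protein-coding genes on the chromosomes given here. The G1 pair comprises cyd-1 on chromosome II (12980591 to 12993117) and cdk-4 on X (13515856 to 13518911). The S-phase pair comprises cye-1 (6780799 to 6784397) and cdk-2 (3410013 to 3416368), both on I. The A-type cyclin cya-1 (9106699 to 9109272) and cdk-1 (9747472 to 9748852) lie on III. Of the B-type cyclins, cyb-1 (10735216 to 10737177) and cyb-2.1 (10985985 to 10987426) lie on IV, cyb-2.2 on I (4114861 to 4116370) and cyb-3 on V (15395696 to 15397353). For cdk-2, 7.6% of the exon bases overlap a non-coding RNA on the same strand and an antisense RNA, and for cya-1 5.1% overlap dos-1 on the opposite strand. The strand setting of the counting is not given in the sources used here, so reads in these stretches cannot be told apart. The genes cyb-2.1 and cyb-2.2 are close copies, and the treatment of reads that match both is not given either, so the division of counts between them is uncertain.

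**Figure D1:**
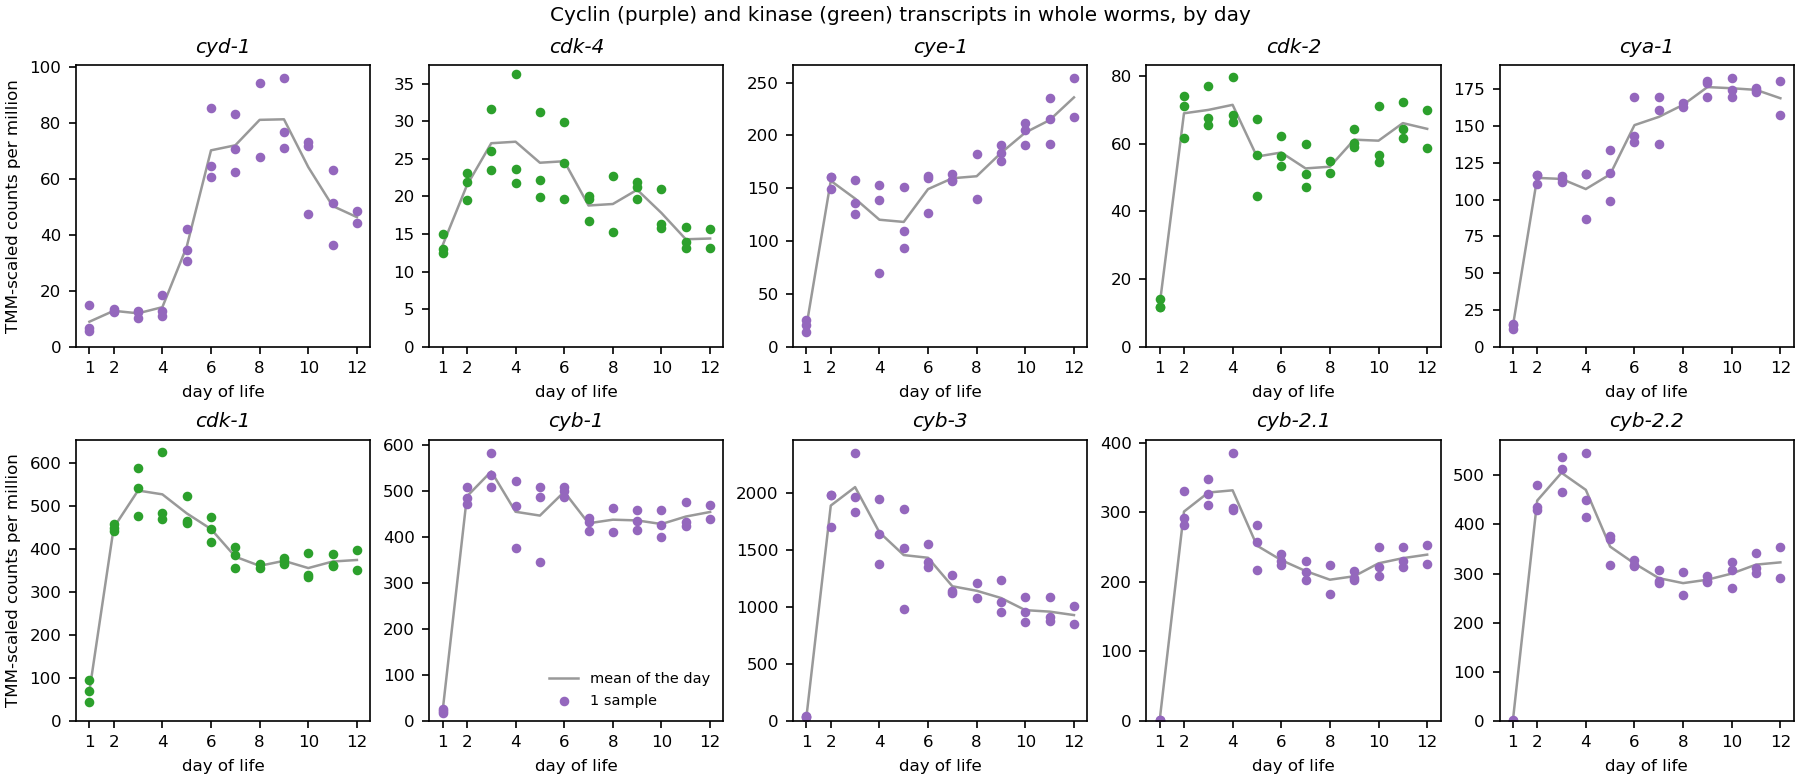
TMM-scaled CPM (vertical axis, from 0, own scale in each panel) against day of life (horizontal axis) for the 10 genes. Points are single samples (purple cyclins, green kinases) and the grey line is the mean of the day. Nearly every gene steps up between day 1 and day 2, and cyd-1 steps up between days 4 and 6, to a highest daily mean of 81.3 on day 9.

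Day 2 was first set against day 1. Of the 10 genes 9 were higher on day 2, with log2 changes between 0.79 for cdk-4 and 9.86 for cyb-2.2, and cyd-1 alone did not pass the test (edgeR quasi-likelihood test on these 6 samples, Benjamini-Hochberg adjusted p under 0.01). Across all 12008 genes tested in this comparison, 69.8% passed, 33.8% as higher and 35.9% as lower. The 4 B-type cyclins had the largest changes, the A and E cyclins with cdk-1 and cdk-2 followed, and the G1 pair had the smallest. The summed level of the 10 genes was 3953.6 ± 194.2 CPM on day 2 and 197.5 ± 36.9 CPM on day 1 (SD, n = 3 each).

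The copies cyb-2.1 and cyb-2.2 encode B-type cyclins and were close to the detection limit on day 1. On day 2, cyb-2.2 had 9036, 9044 and 8435 counts (480.4, 435.6 and 429.4 CPM), against 19, 2 and 6 counts (1.12, 0.106 and 0.367 CPM) on day 1. Its log2 change was 9.86 ± 0.562 (SE; edgeR adjusted p = 4.39e-06), and 10.98 without replicate 1, the day 1 library with the most reads of the gene. For cyb-2.1, day 2 gave 330.9, 281.3 and 291.7 CPM and day 1 gave 0.94, 0.477 and 0.916 CPM, from 16, 9 and 15 counts. The log2 change of cyb-2.1 was 8.72 ± 0.251 (edgeR adjusted p = 4.48e-07).

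The B3-type cyclin gene cyb-3, which acts at the metaphase to anaphase transition of the embryo, was at 1983.6, 1705.0 and 1981.8 CPM on day 2, against 35.2, 31.4 and 45.2 CPM on day 1. This was a log2 change of 5.78 ± 0.195, or 55.1-fold (edgeR adjusted p = 7.22e-07). The level of cyb-1, a B1-type cyclin gene, was 486.4, 509.1 and 471.9 CPM on day 2 and 22.3, 16.8 and 25.0 CPM on day 1, a log2 change of 4.64 ± 0.184 (edgeR adjusted p = 1.26e-06). In all 4 B-type cyclins the lowest day 2 sample was far above the highest day 1 sample.

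The A-type cyclin gene cya-1 gave 117.1, 116.9 and 110.4 CPM on day 2, against 15.4, 11.9 and 14.5 CPM on day 1, a log2 change of 3.16 ± 0.133 (edgeR adjusted p = 1.47e-06). The gene of its kinase, cdk-1, the worm counterpart of Cdc2, gave 458.6, 441.2 and 448.3 CPM on day 2, against 68.5, 44.4 and 95.0 CPM on day 1, a log2 change of 2.82 ± 0.267 (edgeR adjusted p = 4.31e-05). On day 1 cdk-1 thus varied 2.14-fold between libraries, and on day 2 it varied 1.04-fold. Neither gene's groups overlapped.

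The cyclin E gene cye-1 was at 160.6, 149.6 and 161.0 CPM on day 2 and at 20, 25.0 and 13.4 CPM on day 1, a log2 change of 3.13 ± 0.227 (edgeR adjusted p = 1.22e-05). For cdk-2, the gene of the kinase that cyclin E binds, the values were 74.2, 71.2 and 61.7 CPM on day 2 and 11.6, 11.7 and 14.1 CPM on day 1, a log2 change of 2.59 ± 0.15 (edgeR adjusted p = 4.61e-06). The S-phase pair thus moved by similar factors, 8.75-fold for the cyclin and 6.03-fold for the kinase.

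The G1 pair moved least. On day 2, cdk-4 had 23.1, 21.9 and 19.6 CPM, against 13, 15 and 12.5 CPM on day 1, a log2 change of 0.79 ± 0.167 (edgeR adjusted p = 0.00308) that failed the threshold when any one replicate was left out. The cyclin D gene cyd-1 had 12.6, 12.4 and 13.3 CPM on day 2 and 6.52, 5.46 and 14.7 CPM on day 1. The groups of cyd-1 overlapped because day 1, replicate 3, was above all day 2 samples, and the log2 change of 0.64 ± 0.373 did not pass (edgeR adjusted p = 0.148). Without replicate 3 the change of cyd-1 was 1.19 and passed (edgeR adjusted p = 0.00375).

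Markers of the germline and of oocytes moved in the same direction across this step. The 10 germline markers, among them the P granule genes glh-1 and pgl-1, summed to between 3571.8 and 3761.0 CPM on day 2 and to between 53.5 and 113.8 CPM on day 1, and 10 of 10 were higher. The 10 oocyte and eggshell markers, led by the yolk receptor gene rme-2 and the maturation factor gene oma-1, summed to between 14594.3 and 17110.2 CPM on day 2 and to between 7.95 and 11.9 CPM on day 1. All 9 of them that could be tested were higher, and perm-2 was at 0 in a day 1 library. By the genes that passed, most lists of other tissues had more genes lower than higher. In the intestine list 1 of 7 tested genes was higher and 5 were lower, and in the neuron list 1 and 4 of 6. The counts were 0 and 3 of 6 for body wall muscle, 0 and 2 of 4 for hypodermis and cuticle, 0 and 1 of 3 for pharynx, and 1 and 1 of 5 for vulva and seam. The intestine list was nonetheless higher in its sum, at 28032.0 to 33835.3 CPM on day 2 and 5666.7 to 8068.6 CPM on day 1. The sums of the muscle, hypodermis, neuron and pharynx lists were lower on day 2, and those of vulva and seam overlapped. In RNA from whole animals, fewer cells of a type and less RNA per cell cannot be told apart, and the part of the germline in the changes of the cyclins was not tested.

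**Figure D2:**
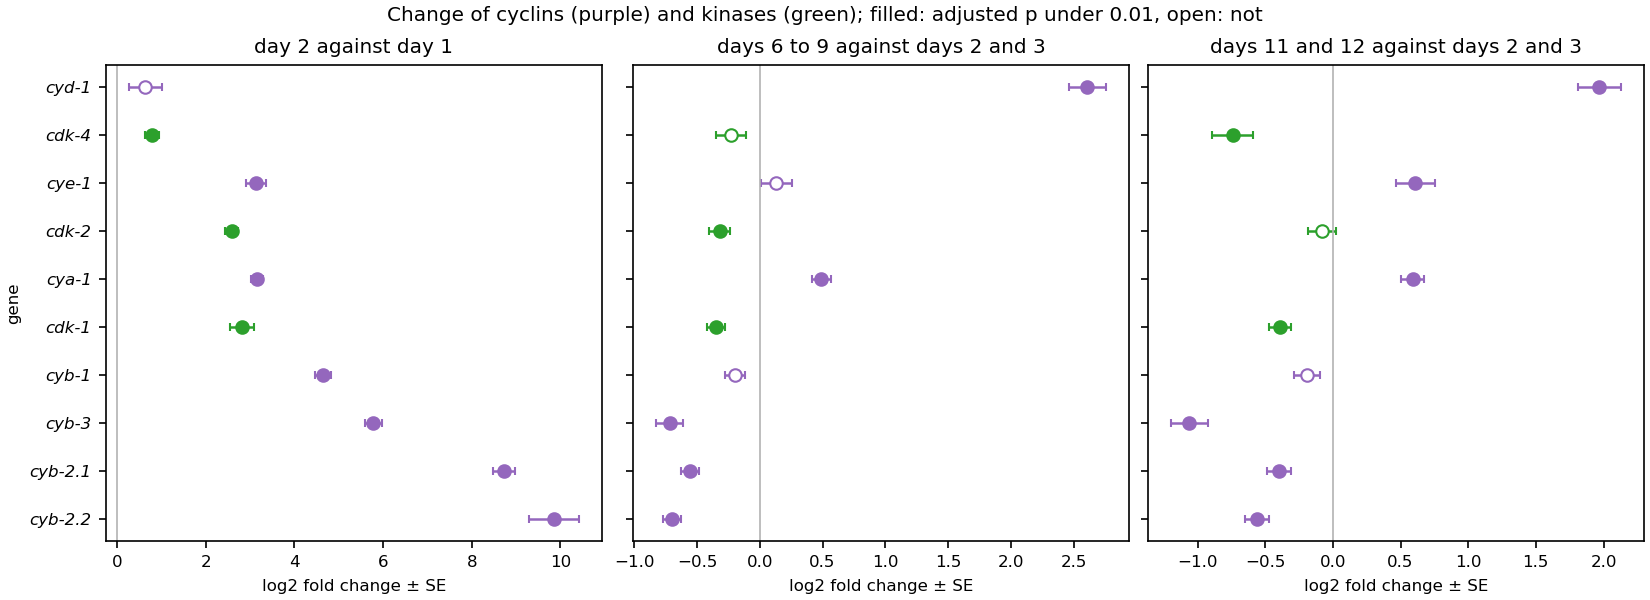
Log2 fold change ± SE (horizontal axis) of each gene (vertical axis; purple cyclins, green kinases) for day 2 against day 1 (n = 3 each), days 6 to 9 (n = 11) against days 2 and 3 (n = 6), and days 11 and 12 (n = 5) against days 2 and 3. Filled points passed an adjusted p of 0.01 and open points did not. The B-type cyclins are farthest to the right in the first panel, and cyd-1 stands apart in the other panels at 2.61 and 1.97.

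Change with age over days 2 to 12 was then tested in all 31 samples with a third-degree polynomial of age, in which the linear term is the average log2 change per day. The cyclins moved in both directions. The genes of the G1, S-phase and A-type cyclins rose, 3 of the 4 B-type cyclins fell, and the kinase genes cdk-1 and cdk-4 fell. Of the 10 genes 9 passed in at least 1 of the 3 terms, while 80.3% of the 13865 genes tested passed, so that share is near the background. By the linear term 3 of 10 rose and 5 of 10 fell, against 36.9% and 33.9% of all genes. A comparison of days 11 and 12 with days 2 and 3 made no use of the shape of the curve. In it 3 genes were higher and 5 lower, against 32.4% and 29.0% of all genes, and 61.3% passed in either direction. Without replicate 1, 5 of the 10 genes passed, and the calls of cye-1, cyb-2.1 and cdk-1 were lost.

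The direction of small changes in this range depends on the scaling of the libraries. With scaling by library size alone, the median of all genes for days 11 and 12 against days 2 and 3 was 0.458 on the log2 scale instead of 0.0683, and 73.5% of the genes that passed were higher instead of 52.8%. Below, changes are relative to the TMM level, at which the median gene is nearly level. With library size alone 4 of the 10 genes passed, cyd-1, cye-1 and cya-1 as higher and cyb-3 as lower. The falls that no longer passed had log2 changes of -0.36 for cdk-4, -0.18 for cyb-2.2, -0.02 for cyb-2.1 and -0.00498 for cdk-1, each still below that shifted median.

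The cyclin D gene cyd-1 had the largest change of the 10 in this range. Its daily means over days 1 to 12 were 8.9, 12.8, 11.9, 14.1, 35.7, 70.2, 72.0, 81.1, 81.3, 64.2, 50.3 and 46.3 CPM. The gene was thus nearly level on days 2 to 4, where single samples lay between 10.3 and 18.4 CPM, and on days 6 to 9 no sample was below 60.7 CPM. In the order of its levels the samples of day 5, between 30.5 and 42.2 CPM, overlapped neither those of day 4 nor those of day 12, whereas all other neighbours in that order overlapped.

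The average log2 change of cyd-1 per day was 0.252 ± 0.0241 (edgeR adjusted p = 6.89e-11), and the curved second-degree term also passed (edgeR adjusted p = 8.8e-08). On days 11 and 12 the gene was at 63.1, 36.3, 51.4, 48.5 and 44.1 CPM, against a lowest, median and highest value of 10.3, 12.5 and 13.3 CPM on days 2 and 3. This was a log2 change of 1.97 ± 0.161, or 3.93-fold (edgeR adjusted p = 1.49e-10), and the groups did not overlap. The change stayed past the threshold in each alternative tried.

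Where cyd-1 moved was examined in additional comparisons chosen after its values were seen. Day 5 was above day 4 by 1.34 ± 0.216 on the log2 scale (edgeR adjusted p = 0.000225), with 34.4, 42.2 and 30.5 CPM on day 5 and 12.9, 11 and 18.4 CPM on day 4. This step passed for 1 of the 10 genes and for 3.12% of all genes. It did not pass without replicate 1 (edgeR adjusted p = 0.0369) or without replicate 2 (edgeR adjusted p = 0.0133), and it was 1.29 without the day 4 and day 5 libraries that stood apart. Day 6 minus day 5 was 0.96 ± 0.21 for cyd-1 (edgeR adjusted p = 0.0318), a step at which 0 of the 10 genes and 0.0938% of all genes passed. At an unadjusted p under 0.05 the step passed for 2 of the 10 genes, cyd-1 and cya-1, and for 15.8% of all genes, and DESeq2 called 1 of the 10 and 0.873% of all genes.

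Days 6 to 9 were above days 2 and 3 by 2.61 ± 0.149 for cyd-1, or 6.12-fold (edgeR adjusted p = 2.45e-13). In that comparison, which shares its days 2 and 3 samples with the one above, 7 of the 10 genes passed, against 60.7% of all genes. Days 11 and 12 were then below days 6 to 9 for cyd-1, by a log2 change of -0.64 ± 0.144 (edgeR adjusted p = 0.0019), in a comparison that 3 of the 10 genes and 18.8% of all genes passed, 1 of the 3 as higher (9.44% of all genes) and 2 as lower (9.4%). The later fall of cyd-1 is less firm than the earlier rise, since it was between -0.88 and -0.49 and no longer passed when replicate 1, 2 or 3 was left out.

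Unlike its cyclin, cdk-4 fell. Its daily means over days 1 to 12 were 13.5, 21.5, 27.1, 27.3, 24.5, 24.7, 18.8, 19, 20.9, 17.8, 14.3 and 14.4 CPM, the lowest of the kinases per kilobase from day 2 onward. On days 11 and 12 it was at 15.9, 13.2, 13.9, 15.7 and 13.2 CPM, against 19.6, 23.3 and 31.7 CPM as the lowest, median and highest value of days 2 and 3. The groups did not overlap and the log2 change was -0.74 ± 0.152 (edgeR adjusted p = 0.000136), while days 6 to 9 did not pass. Days 11 and 12 were below days 6 to 9 by a log2 change of -0.51 ± 0.138 (edgeR adjusted p = 0.00663), which was between -0.72 and -0.38 and did not pass when replicate 1, 2 or 3 was left out, nor with scaling by library size alone, where it was -0.59 (edgeR adjusted p = 0.0133).

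The cyclin E gene cye-1 dipped and then rose. Over days 1 to 12 the daily means of cye-1 were 19.5, 157.1, 140.2, 120.2, 118.1, 149.2, 159.5, 161.4, 183.5, 202.8, 214.6 and 236.1 CPM. The dip rested partly on the libraries that stood apart, with 69.3 CPM in day 4, replicate 2, against 138.8 and 152.7 CPM in the other day 4 samples, and 93.8 CPM in day 5, replicate 3, against 151.1 and 109.5 CPM in the other day 5 samples. The samples of days 11 and 12 had cye-1 at 192.3, 235.5, 216.1, 254.5 and 217.7 CPM, against 125.8, 153.9 and 161.0 CPM as the lowest, median and highest of days 2 and 3. Days 11 and 12 lay wholly above days 2 and 3, with a log2 change of 0.61 ± 0.147 (edgeR adjusted p = 0.00074). The change was 0.68 and just missed the threshold without replicate 1 (edgeR adjusted p = 0.0103). Days 6 to 9 minus days 2 and 3 was 0.13 ± 0.123 and did not pass (edgeR adjusted p = 0.369), and days 11 and 12 were above days 6 to 9 by 0.48 ± 0.13 (edgeR adjusted p = 0.0066). That late rise was between 0.36 and 0.52 and did not pass when replicate 1, 2 or 3 was left out. With scaling by library size alone the earlier difference was 0.582 and the later one 0.41, which did not pass (edgeR adjusted p = 0.017).

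The kinase gene cdk-2 did not pass in the linear term, with a slope of -0.0139 ± 0.00991 log2 per day (edgeR adjusted p = 0.201), and passed in the second-degree term only (edgeR adjusted p = 0.0037). The slope depended on the processing, since it was -0.0575 with the trend on transcript length removed (edgeR adjusted p = 0.000442) and 0.0291 with scaling by library size alone (edgeR adjusted p = 0.0246). The call in the second-degree term was lost without replicate 1 (edgeR adjusted p = 0.299). Its daily means over days 2 to 12 were 69.0, 70.0, 71.5, 56.2, 57.4, 52.7, 53.2, 61.2, 60.9, 66.1 and 64.4 CPM. The gene was thus lowest in the middle of the series, and days 11 and 12, at 64.4, 72.2, 61.6, 70.0 and 58.8 CPM, overlapped days 2 and 3, which ran between 61.7 and 77.1 CPM. The log2 change between these ends was -0.08 ± 0.102 (edgeR adjusted p = 0.466), and -0.36 with the trend on length removed (edgeR adjusted p = 0.0256). Days 6 to 9 were below days 2 and 3 by a log2 change of -0.32 ± 0.0838 (edgeR adjusted p = 0.00157), which did not pass without replicate 1 and turned to 0.13 under scaling by library size alone, below that scaling's median of 0.503 for all genes.

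The A-type cyclin gene cya-1 rose to a level that it then kept. The means of days 2 to 12 were 114.8, 114.1, 107.2, 117.2, 150.7, 156.3, 164.5, 176.6, 175.8, 174.7 and 169.0 CPM. Its values were 175.8, 174.8, 173.5, 180.4 and 157.6 CPM on days 11 and 12, and on days 2 and 3 the lowest, median and highest samples had 110.4, 115.1 and 117.1 CPM. No sample of days 11 and 12 reached down to those of days 2 and 3, and the log2 change was 0.59 ± 0.0858 (edgeR adjusted p = 1.5e-06). Its slope was 0.0818 ± 0.00811 log2 per day (edgeR adjusted p = 1.45e-10), and most of the rise had been made by days 6 to 9, which were 0.49 ± 0.0731 above days 2 and 3 (edgeR adjusted p = 2.26e-06).

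The kinase gene cdk-1 fell by a smaller amount. Day by day, the means of days 2 to 12 were 449.3, 535.5, 526.6, 482.5, 445.9, 381.6, 360.4, 372.0, 355.2, 370.4 and 374.0 CPM. The samples of days 11 and 12 were at 388.8, 361.1, 361.3, 397.8 and 350.1 CPM, below the 441.2, 467.4 and 587.9 CPM that were the lowest, median and highest of days 2 and 3. The log2 change was -0.39 ± 0.0839 (edgeR adjusted p = 0.000218), and without replicate 1 it was -0.45 and missed the threshold (edgeR adjusted p = 0.0129). For days 6 to 9 against days 2 and 3 the log2 change of cdk-1 was -0.35 ± 0.0687 (edgeR adjusted p = 9.72e-05), which did not pass without replicate 1 or without replicate 3 and turned to 0.11 under scaling by library size alone.

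Among the B-type cyclins, cyb-3 fell by the largest amount, with its highest daily mean on day 3 and a lower one on each later day. The daily means of cyb-3 over days 2 to 12 were 1890.1, 2052.3, 1655.3, 1455.4, 1431.8, 1181.6, 1142.1, 1078.6, 971.9, 958.9 and 928.6 CPM. Late in life, on days 11 and 12, it was at 1084.0, 880.1, 912.5, 1005.7 and 851.5 CPM, against 1705.0, 1975.6 and 2354.1 CPM as the lowest, median and highest of days 2 and 3. These groups were far apart, with a log2 change of -1.06 ± 0.137, or 2.08-fold lower (edgeR adjusted p = 2.88e-07), and a slope of -0.12 ± 0.0117 log2 per day (edgeR adjusted p = 9.38e-11). Day 5, replicate 3, one of the libraries that stood apart, was at 984.9 CPM, while the other samples of that day had 1521.5 and 1859.9 CPM. In the order of the levels each day overlapped its neighbour except day 6 with day 7.

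The copies cyb-2.1 and cyb-2.2 fell in the first part of the series. For cyb-2.2 the daily means over days 2 to 12 were 448.5, 505.1, 470.3, 354.7, 320.4, 290.6, 280.4, 287.4, 299.9, 318.1 and 322.7 CPM, and for cyb-2.1 they were 301.3, 328.7, 331.9, 252.3, 231.4, 215.7, 203.2, 208.2, 226.8, 234.2 and 239.3 CPM. Both had their lowest mean on day 8. The second-degree term passed for both, with an edgeR adjusted p of 0.00022 for cyb-2.2 and 0.00122 for cyb-2.1. Days 11 and 12 minus days 6 to 9 was 0.14 ± 0.0766 for cyb-2.2 and 0.16 ± 0.0783 for cyb-2.1 on the log2 scale, and neither passed (edgeR adjusted p = 0.167 and 0.119).

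On days 11 and 12 cyb-2.2 was at 300.6, 342.0, 311.7, 354.9 and 290.5 CPM, against 429.4, 472.8 and 536.7 CPM as the lowest, median and highest of days 2 and 3, a log2 change of -0.56 ± 0.0868 (edgeR adjusted p = 3.55e-06). For cyb-2.1 days 11 and 12 gave 221.8, 250.6, 230.4, 252.6 and 226.0 CPM, against 281.3, 319.0 and 348.2 CPM as the lowest, median and highest of days 2 and 3, a log2 change of -0.4 ± 0.0885 (edgeR adjusted p = 0.000279). The groups overlapped for neither gene, and the call of cyb-2.1 was lost without replicate 1 (edgeR adjusted p = 0.0429). On days 6 to 9 the log2 changes against days 2 and 3 were -0.7 ± 0.0703 for cyb-2.2 and -0.56 ± 0.0721 for cyb-2.1 (edgeR adjusted p = 4.27e-09 and 2.3e-07), and with scaling by library size alone they were -0.25 and -0.11 and did not pass.

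The fourth B-type cyclin, cyb-1, was close to level. Across days 2 to 12 its daily means were 489.1, 543.4, 455.5, 447.2, 499.0, 430.4, 438.3, 436.7, 428.8, 445.1 and 455.1 CPM. Samples of days 11 and 12 had 476.1, 425.5, 433.6, 470.4 and 439.8 CPM of cyb-1, overlapping days 2 and 3, which ran between 471.9 and 584.6 CPM. The log2 change of -0.19 ± 0.0944 (edgeR adjusted p = 0.0759) and the slope of -0.0212 ± 0.00867 per day (edgeR adjusted p = 0.0268) did not pass. The libraries that stood apart had the lowest cyb-1 values of their days, with 376.7 CPM in day 4, replicate 2, and 345.2 CPM in day 5, replicate 3. Without them the slope of cyb-1 was -0.028 and passed as a fall (edgeR adjusted p = 6.89e-05). Under scaling by library size alone it was 0.023 and passed as a rise (edgeR adjusted p = 0.0093). That value was below the median slope of 0.05 for all genes under this scaling.

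The weight of long transcripts in the libraries also changed over the series. The trend of values on transcript length was between 0.137 and 0.234 log2 units per doubling on days 11 and 12, and between -0.247 and 0.089 on days 2 and 3. The rising genes cyd-1, cye-1 and cya-1 have transcripts of 2012, 2106 and 2083 bases, longer than those of the falling genes cyb-3, cyb-2.2, cyb-2.1, cdk-1 and cdk-4, which have 1456, 1334, 1268, 1185 and 1231 bases. With the trend on length removed the slopes per day were 0.229 for cyd-1, 0.0538 for cya-1 and 0.0523 for cye-1, and all 3 still passed. The falling genes kept their direction as well, with slopes between -0.115 for cyb-3 and -0.0434 for cdk-1. The slope of cdk-2, which has the longest transcript of the 10 at 2327 bases, moved most in proportion, to -0.0575, and passed, as did that of cyb-1 at -0.0248 (edgeR adjusted p = 0.00679), so that 7 of the 10 genes fell by the linear term under this setting.

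Markers of other tissues moved in this range too. The germline markers summed to between 3020.9 and 3626.8 CPM on days 11 and 12 and to between 3009.8 and 3822.2 CPM on days 2 and 3, with 4 of 10 higher. In between, on days 6 to 9, the germline sum was lower, at 1949.6 to 2990.6 CPM. The oocyte and eggshell markers summed to between 10873.7 and 13234.8 CPM on days 11 and 12 and to between 14594.3 and 23204.9 CPM on days 2 and 3, with 6 of 10 lower. The falls of cyb-3, cyb-2.1, cyb-2.2 and cdk-1 thus ran beside a lower sum of oocyte transcripts, and the part of oocyte content in them was not tested.

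Because a cyclin acts through its kinase, the ratio of their counts was taken within each sample, which does not depend on the scaling of libraries. All 5 cyclin to kinase ratios differed between days 11 and 12 (n = 5) and days 2 and 3 (n = 6), and in none did the groups overlap. Each gave p = 0.00433 in the exact permutation test (two-sided, 462 splits), the smallest that this design allows, and 0.00433 after adjustment over the 5 pairs. The ratio of the G1 pair moved most and 4 of the 5 ratios rose. How often the ratio of other gene pairs separates these groups was not computed. Between the same groups 61.3% of all genes passed when tested singly, so a separation of all 5 ratios is not particular to these pairs on this evidence.

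The log2 ratio of cyd-1 to cdk-4 averaged 1.74 ± 0.207 on days 11 and 12 and -0.97 ± 0.28 on days 2 and 3 (SD), a difference of 2.7, or 6.52-fold. The daily means show that the sign turned between days 4 and 5, with -0.75, -1.18, -0.94, 0.56, 1.51, 1.93, 2.1, 1.95, 1.84, 1.78 and 1.68 over days 2 to 12. The G1 kinase therefore had more reads than its cyclin up to day 4 and fewer from day 5 onward, as daily means. Single samples on the other side were day 1, replicate 3, at 0.24 and day 5, replicate 3, at -0.04. These are reads without regard to transcript length, which is 2012 bases for cyd-1 and 1231 for cdk-4. Per kilobase, cyd-1 was still below cdk-4 on day 5, at 17.7 and 19.9 CPM.

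For cye-1 to cdk-2 the log2 ratio was 1.77 ± 0.128 on days 11 and 12 and 1.09 ± 0.214 on days 2 and 3, a difference of 0.67. For cya-1 to cdk-1 it was -1.11 ± 0.0514 on days 11 and 12 and -2.1 ± 0.177 on days 2 and 3, a difference of 0.99 that had been made by day 8, with -1.13 as the mean of that day. The S-phase and A-type cyclins thus gained on their kinases as the G1 cyclin did, by smaller amounts. These ratios still carry the trend on transcript length. With the trend removed, the log2 changes between these days were 0.41 for cya-1 and -0.31 for cdk-1. For cye-1 and cdk-2 they were 0.42 and -0.36, and for cyd-1 and cdk-4 they were 1.82 and -0.67.

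The B-type ratios went in opposite directions. The log2 ratio of cyb-3 to cdk-1 was 1.34 ± 0.0801 on days 11 and 12 and 2.0 ± 0.154 on days 2 and 3, a difference of -0.66, and that of cyb-1 to cdk-1 was 0.27 ± 0.0384 on days 11 and 12 and 0.07 ± 0.0812 on days 2 and 3, a difference of 0.2. In the libraries that stood apart, day 4, replicate 2, and day 5, replicate 3, the ratio of cyb-1 to cdk-1 was -0.73 and -0.6, below all other samples of days 2 to 12. With the trend on length removed the difference in the ratio of cyb-1 to cdk-1 was 0.1 in place of 0.2. The copies kept a nearly fixed ratio to each other, with cyb-2.2 above cyb-2.1 by 0.36 to 0.65 log2 units in each sample of days 2 to 12.

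**Figure D3:**
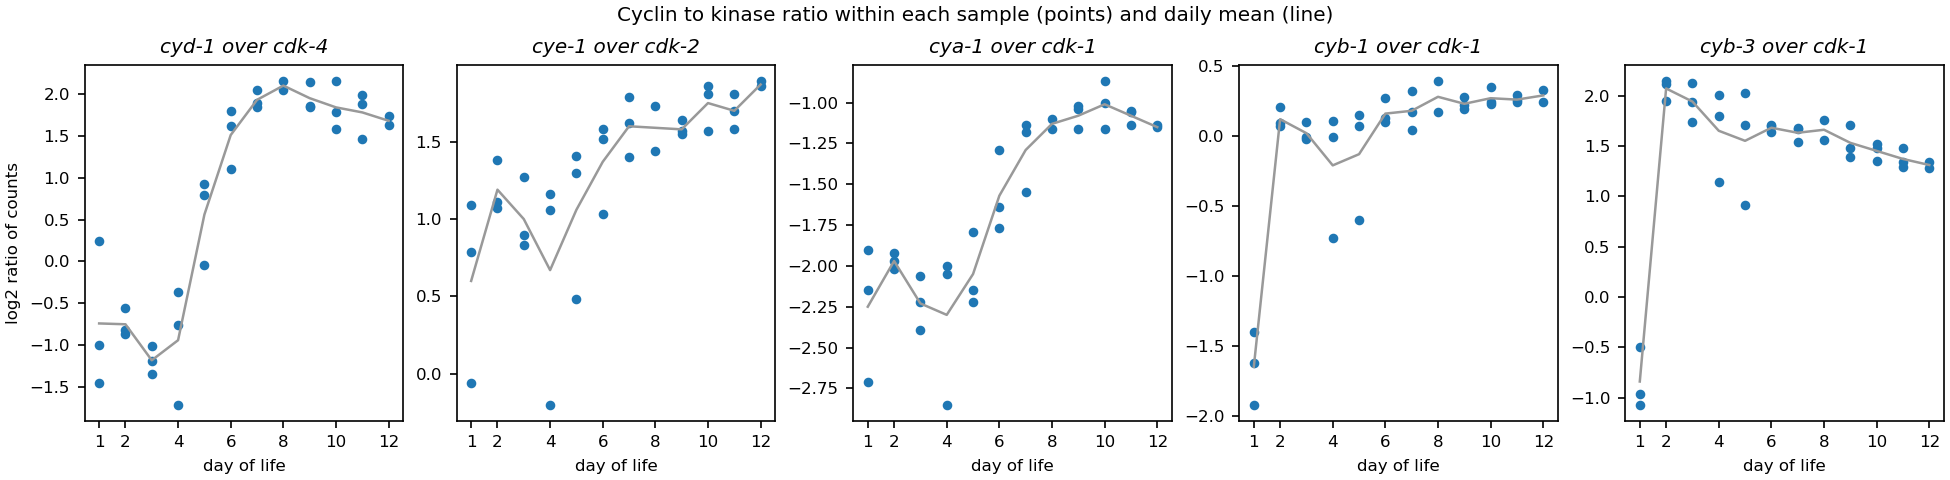
Log2 ratio of cyclin counts to kinase counts within each sample (vertical axis, own scale in each panel) against day of life (horizontal axis). Points are samples and the grey line is the mean of the day. The ratio of cyd-1 to cdk-4 has negative daily means up to day 4 and positive ones from day 5, and the ratio of cyb-3 to cdk-1 has a daily mean of 1.31 on day 12 and 2.07 on day 2.

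Levels of different genes were compared per kilobase of the longest annotated transcript. On day 1 cdk-1 had the highest level, 58.5 ± 21.4 CPM per kilobase, cyb-3 came next at 25.6 ± 4.89, and the copies cyb-2.1 and cyb-2.2 were at the bottom with 0.613 ± 0.206 and 0.397 ± 0.393 (SD, n = 3). On days 2 to 12 cyb-3 was highest each day, with 637.8 CPM per kilobase on day 12 and 1298.1 on day 2, and cdk-1 was second each day. At the lower end cyd-1 had the lowest level on days 2 to 5, at 6.35 CPM per kilobase on day 2, and had passed both cdk-4 and cdk-2 by day 6, at 34.9 CPM per kilobase. The B-type cyclins and cdk-1 made up the upper 5 ranks on each of days 2 to 12, and the A, D and E cyclins with cdk-2 and cdk-4 made up the lower 5.

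**Figure D4:**
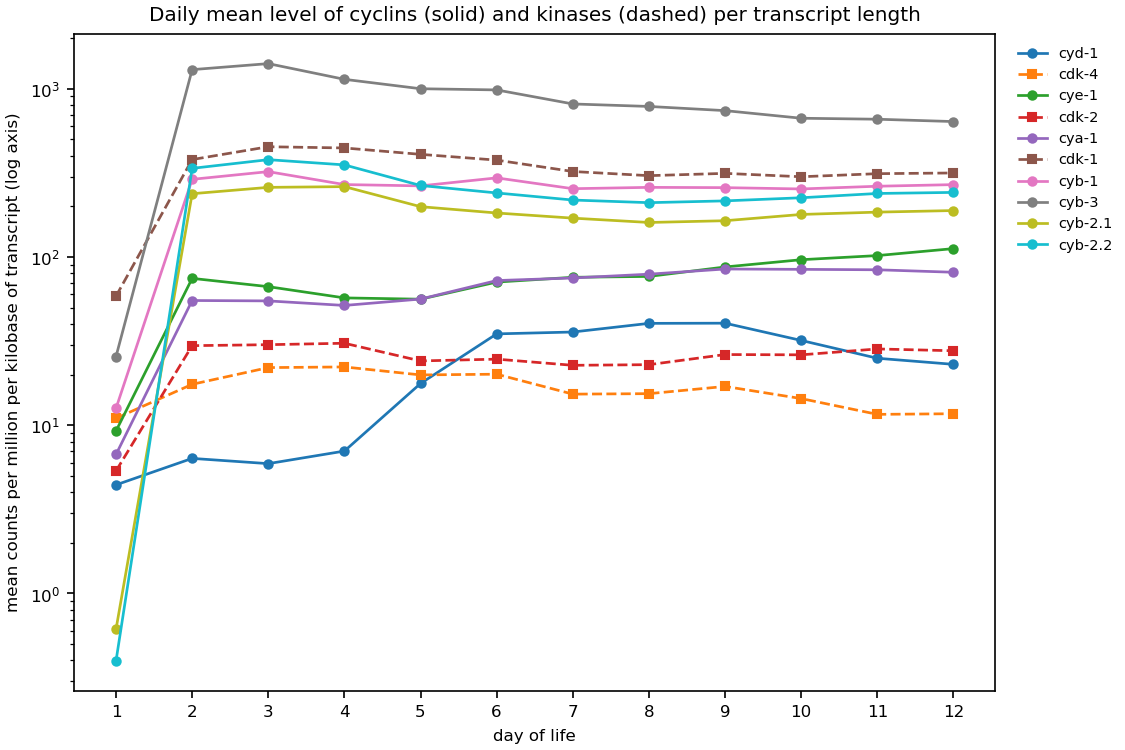
Mean level per day in CPM per kilobase of transcript (vertical axis, log scale) against day of life (horizontal axis), with cyclins as circles on solid lines and kinases as squares on dashed lines. The line of cyd-1 lies under all others on days 2 to 5 and above cdk-4 and cdk-2 on days 6 to 10, and cyb-3 is on top from day 2 onward.

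Among themselves the 10 genes had correlations of log2 CPM in both directions over the 31 samples of days 2 to 12, some strong and some weak. These samples share the ageing trend and the properties of their libraries, so the values are a description. The copies cyb-2.1 and cyb-2.2 had r = 0.981, and cyd-1 ran against both, with r = -0.936 and -0.953. The rising cyclin cya-1 had r = 0.821 with cyd-1 and 0.788 with cye-1, and -0.868 with its kinase cdk-1. The nearly level cyb-1 was most like cyb-3 among the members, with r = 0.719. Weak pairs included cyb-1 with cdk-2 (r = 0.00576), cyb-1 with cye-1 (r = 0.0305) and cdk-2 with cye-1 (r = -0.0909). The rising cyclins cyd-1 and cye-1 had r = 0.425.

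The genes most like each member were found by the correlation of 12 daily means of log2 CPM, which is dominated by the step between day 1 and day 2. For cyd-1 these were F28H1.1 (r = 0.993) and mig-13 (r = 0.9895), a gene of neuronal cell migration. For cdk-1 they were cks-1, which encodes a small protein that binds cyclin-dependent kinases (r = 0.9988), and ari-1.4 (r = 0.9987). The B-type copies were most like fbxa-215 and kca-1 for cyb-2.1 (r = 0.9999 and 0.9997) and the egg surface gene egg-1 and fbxa-215 for cyb-2.2 (r = 0.9998 and 0.9997), and cyb-3 was most like the yolk protein gene vit-5 and nasp-2 (r = 0.9985 for both).

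For the others the most similar genes were cec-3 and immt-2 for cyb-1 (r = 0.9993 and 0.999), rtfo-1 and cfp-1 for cya-1 (r = 0.998 and 0.9979), T19B4.5 and pph-7 for cye-1 (r = 0.9981 and 0.9974), C13F10.6 and F44B9.8 for cdk-2 (r = 0.9984 and 0.9983) and sysm-1 and enri-1 for cdk-4 (r = 0.967 and 0.9622). Over the 11 daily means of days 2 to 12 alone, a view added after these values were seen, cyd-1 was most like the sodium-calcium exchanger gene ncx-3 (r = 0.9969) and the netrin receptor gene unc-5 (r = 0.996). In the same view the 2 most similar genes were the Aurora A kinase gene air-1 and zipt-7.1 for cyb-2.2 (r = 0.9982 and 0.9968), gldi-5 and acl-2 for cyb-2.1 (r = 0.9954 and 0.9933), C07D8.6 and got-2.2 for cyb-3 (r = 0.991 and 0.9893) and paa-1 and cept-2 for cyb-1 (r = 0.9434 and 0.9219). They were ubc-1 and sys-1 for cya-1 (r = 0.9952 and 0.9949) and the cell cycle chromatin regulator gene lin-9 and the spindle gene lin-5 for cye-1 (r = 0.9924 and 0.9917). For the kinases they were eas-1 and pfd-6 for cdk-1 (r = 0.9968 and 0.9932), C17H12.8 and mff-1 for cdk-4 (r = 0.9694 and 0.968) and, as over all 12 days, C13F10.6 and F44B9.8 for cdk-2 (r = 0.9657 and 0.9652).

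Other genes of the cell cycle were described by role from a list of 84, of which 82 had a row. On day 2, 73 of the 79 that could be tested were higher than on day 1 and 2 were lower, beside 33.8% and 35.9% of all genes. Their median log2 change was 2.13, against -0.12 over all genes. All 15 tested genes of licensing and replication, all 8 mitotic kinases and chromosomal passenger genes and all 6 genes of the spindle checkpoint were higher, as were 12 of 13 of the anaphase promoting complex, which marks mitotic cyclins for destruction. The largest rises among well-measured genes were those of cdc-25.1, a phosphatase that activates cyclin-dependent kinases (366.7 ± 25 CPM on day 2 and 12.3 ± 1.89 on day 1), the polo-like kinase gene plk-2 (157.2 ± 15.6 CPM on day 2 and 5.44 ± 2.86 on day 1) and skr-2, which encodes a Skp1-related ubiquitin ligase subunit (280.6 ± 32.3 CPM on day 2 and 13 ± 3.78 on day 1), with log2 changes of 5.01, 4.98 and 4.56.

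The 2 that fell at this step were cki-1, a CIP/KIP-type inhibitor of cyclin-dependent kinases, and efl-3, a member of the E2F family. On day 2 cki-1 was at 4.04 ± 0.633 CPM, against 42.8 ± 19.6 on day 1, a log2 change of -3.29 ± 0.375 (edgeR adjusted p = 0.000114). The level of efl-3 was 9.77 ± 1.58 CPM on day 2 and 120.5 ± 6.62 on day 1, a log2 change of -3.5 ± 0.162 (edgeR adjusted p = 2.13e-06).

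Over days 2 to 12 the same list moved in both directions, with 34 of 80 rising and 27 falling by the linear term, beside 36.9% and 33.9% of all genes. For days 11 and 12 against days 2 and 3, 27 of 80 were higher and 23 lower, beside 32.4% and 29.0% of all genes, with a median of 0.0817 against 0.0683 over all genes. By role, 5 of 7 other cyclin-dependent kinases were higher and 1 lower. The counts of higher and lower genes were 1 and 4 of 8 for mitotic kinases and passenger genes and 4 and 6 of 15 for licensing and replication. They were 3 and 2 of 7 for other cyclins and 3 and 2 of 6 for the spindle checkpoint. For the anaphase promoting complex they were 2 and 3 of 13, and for activating phosphatases and cofactors 1 and 3 of 5. E2F factors had 1 and 0 of 4, and cyclin destruction and G1 turnover 3 and 1 of 9. The list of inhibitors and inhibitory kinases, with 4 of 6 higher, also holds lin-35 and fzr-1. Both were higher, as were cki-1 and wee-1.3, and wee-1.1 was lower.

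The largest rise was that of cki-1, the inhibitor that fell between day 1 and day 2. On days 11 and 12 cki-1 was at 38.4 ± 4.99 CPM (n = 5) and on days 2 and 3 at 4.17 ± 0.945 (n = 6), a log2 change of 3.2 ± 0.18 (edgeR adjusted p = 2.79e-13). Its daily means over days 2 to 12 were 4.04, 4.3, 6.73, 26.1, 40.9, 38.1, 37.1, 41.3, 41.2, 39.7 and 36.4 CPM, with the step at days 5 and 6, where cyd-1 also stepped up. The genes efl-3 and fzr-1, which encodes an activator of the anaphase promoting complex, were higher by 1.33 ± 0.151 and 1.32 ± 0.22 (edgeR adjusted p = 3.76e-08 and 1.06e-05).

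Among listed genes with a mean of at least 100 counts, the largest falls were in genes of DNA replication. The inhibitory kinase gene wee-1.1, under that limit, had a log2 change of -1.32 ± 0.368 (edgeR adjusted p = 0.00261). The gene psf-1 of the GINS complex was at 74.1 ± 3.66 CPM on days 11 and 12 and 148.2 ± 32.8 on days 2 and 3, a log2 change of -0.98 ± 0.112 (edgeR adjusted p = 4.27e-08). The sliding clamp gene pcn-1 had 687.8 ± 52.1 CPM on days 11 and 12 and 1317.5 ± 213.8 on days 2 and 3, a log2 change of -0.93 ± 0.127 (edgeR adjusted p = 6.39e-07). The geminin gene gmn-1, a restraint on licensing, had 109.6 ± 9.17 CPM on days 11 and 12 and 207.2 ± 43.8 on days 2 and 3, a log2 change of -0.9 ± 0.125 (edgeR adjusted p = 9.18e-07). All 3 fell by nearly as much as cyb-3.

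**Figure D5:**
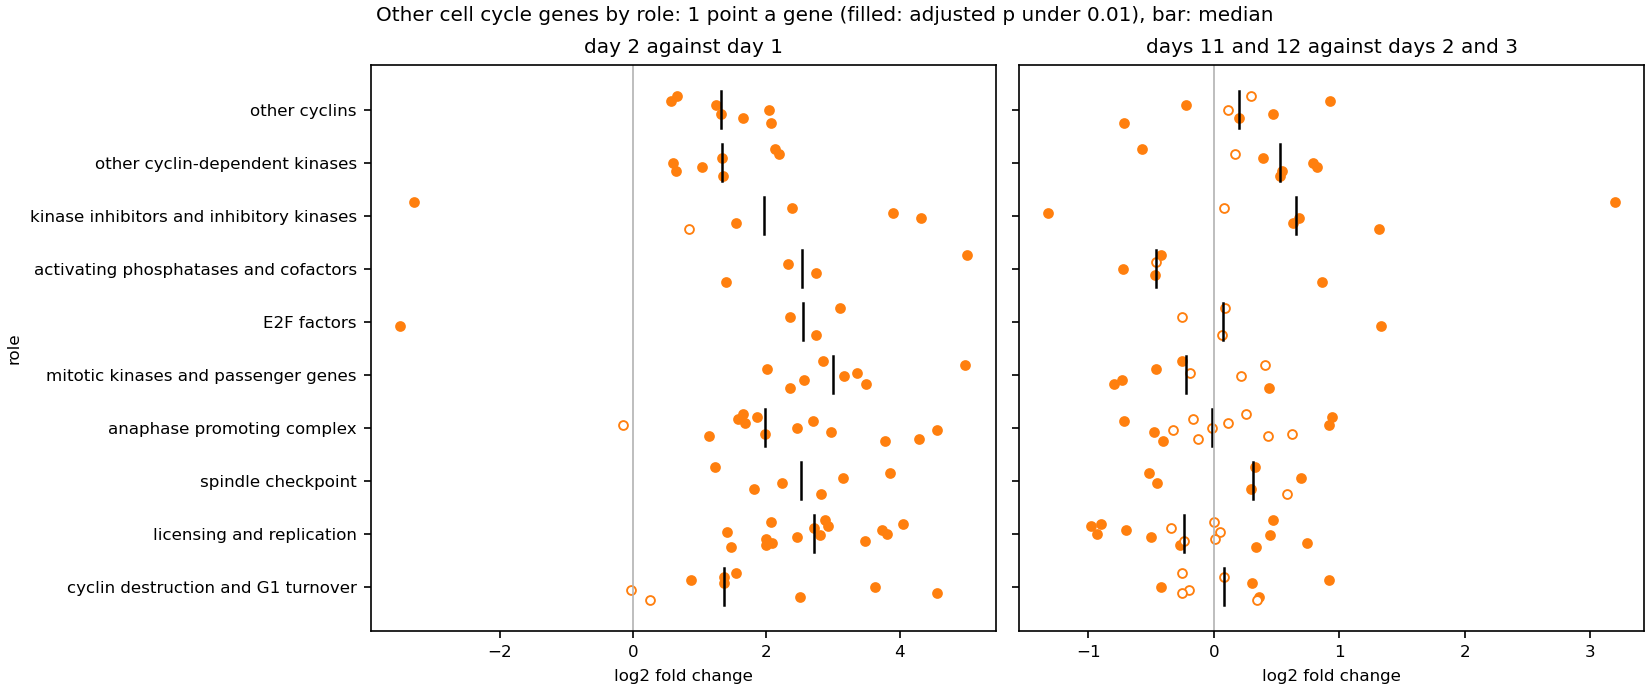
Log2 fold change (horizontal axis) of other cell cycle genes grouped by role (vertical axis), for day 2 against day 1 and for days 11 and 12 against days 2 and 3. Each point is 1 gene, filled where the adjusted p was under 0.01, and the bar is the median of the role. In the first panel every role has a positive median and cki-1 and efl-3 lie far to the left, and in the second panel cki-1 lies farthest to the right at 3.2.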

How the data were processed

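The deposited table holds raw, unnormalized counts of reads per gene and sample, made by the authors. The submitters' processing notes name STAR 2.7.3a, featureCounts and the build WBcel235, and the annotation release, strand and multi-mapping settings are not given in the sources used here. RNA was enriched for poly(A) transcripts, depleted of rRNA and copied with random hexamers. An entry named transgene (0.000137% of counts) was left out.

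The 10 genes, the gene lists, the marker lists and the tests were chosen with earlier results of these data known. The day named in each label gave the groups. A day 12 column with a replicate number that no label has was used for its day only. It was kept in fits that left out a replicate and left out of fits with a replicate term.

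A gene was tested where 75% of a fit's samples had at least 5 counts for it, in R 4.3.3 with edgeR 4.0.16 (TMM, glmQLFit, glmQLFTest) and p-values were adjusted by the Benjamini-Hochberg method over all tested genes, with a threshold of 0.01. Days 2 to 12 were fitted with a third-degree orthogonal polynomial of age and with day as a factor, and days 1 and 2 on their own, without a batch term, since the sources used here assign no batch to these samples. Log2 CPM used a prior count of 2, count ratios 0.5. Ratios were tested by exact permutation in SciPy 1.17.1. The comparisons of days 6 to 9 and of single days were added after seeing the data. Alternatives were DESeq2 1.42.0, library size alone, DESeq2 size factors, other filters and thresholds, a replicate block, removal of the trend on transcript length, and omission of replicates or of 2 libraries that stood apart. Fits were tested on simulated data.

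All 10 genes were named in the text. Of 84 other cell cycle genes, the 3 largest changes in each direction past the threshold with a mean of at least 100 counts were named, as were the 2 genes most like each member and the first 2 genes of each marker list. Counts carry PCR copies, so low values such as those of day 1 carry at least their counting error. The depth range is given above.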

Additional observations from a re-analysis of the deposited data

Results flagged for a closer look

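Within groups of 4 to 10 samples, 3 of the 30 groups of members and ratios examined held a sample far from the others, as the gap to its nearest neighbour divided by the range of the group, and chance gives about 1 in 20 such groups. For cya-1 on days 11 and 12, the day 12 sample without a matching replicate number, at 157.6 CPM, was below the others with a gap of 0.71 of the range. For cyd-1 on days 2 and 3, day 3, replicate 1, at 10.3 CPM, was below the others with a gap of 0.711 of the range. For the log2 ratio of cyb-3 to cdk-1 on days 11 and 12, day 11, replicate 1, at 1.48, was above the others with a gap of 0.717 of the range. The entry named transgene, which no comparison used, had up to 262 counts in a sample, on day 1, replicate 3, above the limit that a count of 0 allows.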

How the results depend on the processing

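The count of changed genes among the 10 was within 1.5 times its value in each alternative run for age over days 2 to 12 (7 to 10 against 9), for day 2 against day 1 (7 to 9 against 9, the copies cyb-2.1 and cyb-2.2 failing a minimum of 10 counts in every sample) and for days 6 to 9 against days 2 and 3 (5 to 8 against 7). For days 11 and 12 against days 2 and 3 it was 4 in place of 8 with scaling by library size alone and between 5 and 8 when replicate 1, 2 or 3 was left out. For days 11 and 12 against days 6 to 9 it was 5 in place of 3 at a threshold of 0.05 and 0 when replicate 1, 2 or 3 was left out. For day 5 against day 4 it was 2 in place of 1 with DESeq2, 3 at a threshold of 0.05 and between 0 and 1 when a replicate was left out. For day 6 against day 5 it was 1 in place of 0 with DESeq2 and at a threshold of 0.05. Scaling by library size alone reversed the slope of cyb-1 (0.023), which then passed as a rise. By the linear term 4 of the 10 genes then rose and 2 fell, in place of 3 and 5. For days 6 to 9 against days 2 and 3 this scaling reversed the changes of cdk-1 (0.11) and cdk-2 (0.13). It also turned the sign of changes that had not passed with TMM. Among them were cyb-1 (0.251) and cdk-4 (0.229) for days 6 to 9 against days 2 and 3. For days 11 and 12 against days 2 and 3 they included cyb-1 (0.196) and cdk-2 (0.299). Under this scaling the median slope of all genes was 0.05 in place of 0.00631. The median change for days 6 to 9 against days 2 and 3 was 0.503 in place of 0.0454. For days 11 and 12 against days 6 to 9 the median was lower, at -0.0836 in place of -0.0149. Beside the 3 reversals named first, of the cyb-1 slope and of cdk-1 and cdk-2, 38 single values of the 10 genes lost their call and 8 gained one. The rest kept their side of the threshold, as did all 228 values of the other named cell cycle genes. The cause of these changes was not tested.

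The cyclin to kinase ratios kept their direction in the alternatives run. Leaving out replicate 1, 2 or 3 gave 2.63 to 2.8 for cyd-1 to cdk-4, 0.63 to 0.76 for cye-1 to cdk-2, 0.92 to 1.05 for cya-1 to cdk-1, 0.18 to 0.22 for cyb-1 to cdk-1 and -0.69 to -0.63 for cyb-3 to cdk-1. Without replicate 1 too few samples remain for an exact test to pass.

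No pairing of samples by replicate number was seen in the median over the series. Over 136 pairs with the same number on different days, the median correlation of deviations from the day means was 0.0164, and 36 of the pairs were over 0.1. Single pairs ran from -0.452 to 0.549, so pairing on some days is not excluded. Over 271 pairs with different numbers the median was -0.00206. With the replicate number as a block, 9 genes changed with age, 9 on day 2 against day 1, 8 on days 11 and 12 against days 2 and 3, 7 on days 6 to 9 against days 2 and 3, 1 on day 5 against day 4 and 0 on days 11 and 12 against days 6 to 9.

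Depth limited day 1 most, where cyb-2.1 and cyb-2.2 had 2 to 19 counts. The sequencing batch of the samples is not given, each day was harvested from its own plates, and whole animals were used, so tissue shares cannot be told apart from levels within cells.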

Other observations

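The marker lists of other tissues give the background against which the cell cycle genes moved. On days 11 and 12 the intestine list summed to between 1700.6 and 6759.3 CPM, against 14785.5 to 35776.7 CPM on days 2 and 3, with 6 of 8 genes lower. Its first genes, the gut GATA factor gene elt-2 and the esterase gene ges-1, had medians of 5.42 and 3.24 CPM on days 11 and 12 and 9.14 and 18.8 CPM on days 2 and 3. The sperm list summed to between 5.1 and 44.7 CPM on days 11 and 12 and to between 0.75 and 9.11 CPM on days 2 and 3, with 7 of 8 tested genes higher, and spe-9 and spe-11 had medians of 0.644 and 2.25 CPM on days 11 and 12 and 0.124 and 0.125 CPM on days 2 and 3.

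The body wall muscle list summed to between 151.0 and 276.3 CPM on days 11 and 12 and to between 242.7 and 2023.1 CPM on days 2 and 3, with 3 of 6 genes lower and 1 higher, and medians on days 11 and 12 of 46.5 CPM for unc-54 and 16 CPM for myo-3, against 220.0 and 16.9 CPM on days 2 and 3. In the pharynx list 2 of 3 tested genes were higher, with medians of 6.62 CPM for myo-2 and 6.11 CPM for myo-1 on days 11 and 12 and 2.81 and 1.93 CPM on days 2 and 3. In the neuron list 2 of 6 were higher and 1 lower, with 10.1 CPM for unc-119 and 3.4 CPM for rab-3 on days 11 and 12 and 25 and 3.08 CPM on days 2 and 3.

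In the hypodermis and cuticle list 2 of 5 tested genes were higher on days 11 and 12 than on days 2 and 3. The cuticle collagen genes dpy-7 and rol-6 had medians of 160.6 and 2055.0 CPM on day 1, and on day 2 dpy-7 had 0.16 CPM and rol-6 was at 0 in all 3 samples. In the vulva and seam list 1 of 5 tested genes was higher, and egl-17 and lin-39 had medians of 0.228 and 4.24 CPM on days 11 and 12 and 0.208 and 5.69 CPM on days 2 and 3. For the germline genes glh-1 and pgl-1 the medians were 504.9 and 588.1 CPM on days 11 and 12 and 598.4 and 691.8 CPM on days 2 and 3, and for the oocyte genes rme-2 and oma-1 they were 982.7 and 381.2 CPM on days 11 and 12 and 1471.0 and 553.3 CPM on days 2 and 3.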
